A study of Bos taurus with 24 samples.

Results

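The regions described here were stretches of bovine genome that lie between a pair of genes pointing at each other, so that each stretch is bounded on both sides by the 3′ end of a gene. In every table of counts the genome is cut into rows, and a row either carries a gene symbol and spans that gene with its introns, or has no symbol. An interval was taken where a row without a symbol was bordered on its left, with no base between, by a named row on the plus strand, and on its right by a named row on the minus strand. The intervals were chosen by their level: at least 1 CPM (counts scaled to a library of 1000000) in at least 12 of the 24 samples. On the 29 autosomes, 5268 intervals had this arrangement and 2080 of them passed the level limit, out of 59846 rows in all, of which 27550 had a gene symbol and 32296 had none.

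The samples were cultures of dermal fibroblasts, the collagen-making cells of the skin, grown from 4 Angus and 4 Holstein heifers and sampled at 0, 2 and 8 h of exposure to 100 ng/ml lipopolysaccharide (LPS), an outer membrane molecule of Gram-negative bacteria. Angus is a beef breed and Holstein a dairy breed, and the study asked how the innate response of their fibroblasts differs. Each of the 6 groups, a breed at an hour, had 4 samples, and each heifer gave 1 sample at each hour, so that the hours share animals. The 0 h samples served as the control, and all groups shared the same medium and plates. The cultures came from shoulder skin of heifers, were frozen, revived together and chosen at random from a larger set. Lysate of duplicate wells was pooled before RNA was extracted, and no untreated culture at 2 or 8 h was analysed here, so hours in culture and hours of LPS cannot be told apart. In bulk samples of this kind, fewer cells and less RNA per cell cannot be told apart either.

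A messenger RNA ends where the new transcript is cut downstream of a polyadenylation signal and given a poly(A) tail, and many genes have more than a single such signal, so that the same gene can give short and long 3′ untranslated regions. RNA polymerase goes on past the cut until it is released, and transcript from this stretch is usually degraded quickly. Between genes that converge, RNA read from an interval can therefore be a longer 3′ end of either gene, transcript past either end, or an unlisted gene. The libraries were enriched for poly(A) RNA with a kit whose protocol names no step that marks the strand, so a read in an interval cannot be assigned to its left or its right gene.

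The libraries held 31440126 to 66287735 matched reads, 92.88 to 96.54% of the reads, and 51014538 to 104406293 counts. Counts came to 1.5 to 1.712 per matched read, so a read can add to more than a single row, which bears most on short intervals, and its part in their values was not tested. A level of 1 CPM stood for 51.0 to 104.4 counts, and 3 counts for 0.0287 to 0.0588 CPM. In 4 samples (Angus 4, Holstein 2 and Holstein 4 at 0 h, and Angus 3 at 2 h) the row of the collagen gene COL1A1 held 66.17 to 67.06 aligned bases per count, where the remaining 20 had 111.8 to 119.0. Some of the results that rest on these 4 samples are also given without them. All 10 fibroblast markers had a median of at least 1 CPM, and their sum ranged from 37560 to 124000 CPM. All 6 keratinocyte markers (KRT5, KRT14, KRT1, KRT10, CDH1 and EPCAM) had medians below 1 CPM, with sums up to 0.755 CPM in Angus and 13.7 CPM in Holstein, and their part in the breed differences was not tested. The sums were 0.945 to 3.51 CPM for 4 endothelial markers, 1.95 to 5.11 for 5 leukocyte markers, 1.47 to 3.47 for 4 melanocyte markers, 2.36 to 3.94 for 2 adipocyte markers and 16.02 to 44.4 for 2 muscle markers, each list with 1 gene at a median of 1 CPM or more.

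Intervals between converging genes passed the level limit more often than intervals of the other arrangements. Of the autosomal intervals with diverging flanks, 1020 of 5358 (19.0%) passed, of those with both flanks on the same strand 3253 of 12051 (27.0%), and of the convergent ones 39.5%. The order was the same within each class of length. Up to 5 kb, 25.5% of convergent intervals passed, against 4.81% of divergent and 12.8% of same-strand ones, and from 5 to 20 kb the shares were 39.7, 11.3 and 20.4%. From 20 to 100 kb they were 43.5, 19.8 and 30.6%, and above 100 kb 66.7, 52.3 and 59.2%. Per kilobase of interval, the median level of those that passed was 0.371 CPM for convergent, 0.0420 CPM for divergent and 0.142 CPM for same-strand flanks. These are descriptions of what the level limit let through, with no test.

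**Figure D1:**
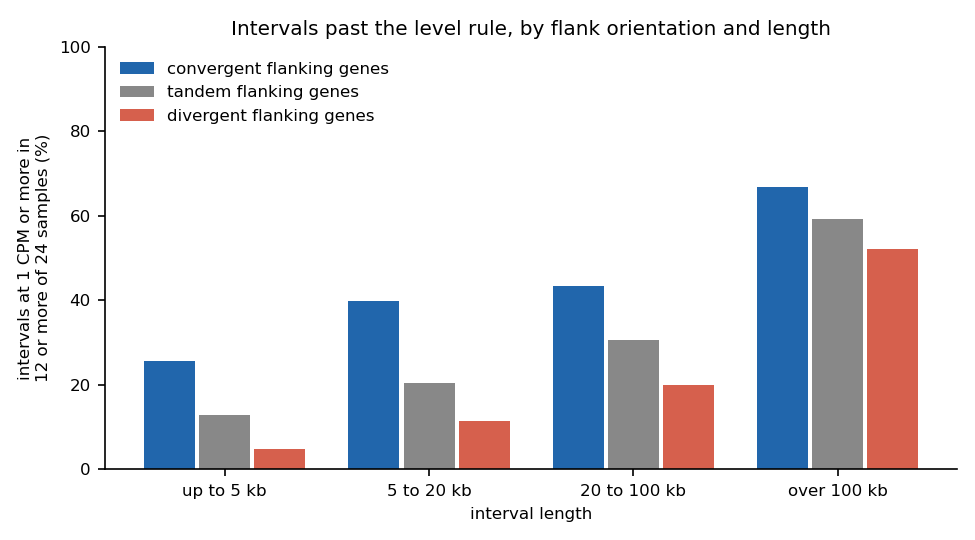
Share of autosomal intervals, in percent, with at least 1 CPM in at least 12 of 24 samples, by length of the interval and by the arrangement of its flanking genes. In each of the 4 length classes the convergent arrangement has the highest share, from 25.5% up to 5 kb to 66.7% above 100 kb, and the divergent arrangement the lowest.

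The 2080 intervals had a median length of 17882 bases, with quartiles of 6063 and 76263 bases, and 72 were shorter than 1 kb. Their mean level over the 24 samples had a median of 5.54 CPM with quartiles of 2.31 and 14.9 CPM, and 701 reached 10 CPM and 40 reached 100 CPM. All 24 samples were at 1 CPM or more in 1677 of them, while 33 had exactly 12 such samples and 21 intervals just missed the limit with 11. Since 12 samples make up a breed, the limit also let in intervals seen mostly in 1 breed: 11 had at least 10 samples of a breed and at most 2 of the other, among them 2 with all 12 Holstein and no Angus samples and 1 with the reverse. All of the 2080 together held 3.27 to 3.93% of the counts of a library.

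The description of the intervals as free of genes held for most and not for all of them. A row with a gene symbol lay over part of 196 of the 2080, and 1884 overlapped no such row. Aligned bases per count, the bases covered in a row divided by its counts, had a median of 97.8 in the intervals and 76.4 in the 2894 of 4160 flanking gene rows at 1 CPM or more. The 196 overlapped intervals had a median of 83.0 bases per count, with quartiles of 72.4 and 95.2, and the other 1884 had 97.95, with quartiles of 96.97 and 98.47. Of 4158 flanking symbols, 3578 matched a RefSeq gene of the ARS-UCD2.0 assembly, 3231 of them protein coding, 216 pseudogenes, 85 microRNA genes and 39 long noncoding RNA genes. Both flanks matched for 1553 intervals and lay on a common chromosome for 1542, of which 1267 had no RefSeq gene between the flanks and 275 had at least 1.

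The intervals of highest level included those beside COL3A1, THBS1, COL6A2, LOX and ITGB1. The MIR2917-COL3A1 interval (UMD v3.1, chr2:7214276-7317286), beside the fibrillar collagen gene COL3A1, averaged 4822 CPM, lay over the collagen gene COL5A2 and had 55.7 aligned bases per count. The THBS1-FSIP1 interval (chr10:35329298-35332359), beside the matrix glycoprotein gene THBS1, averaged 897 CPM over 3062 bases. Beside the collagen VI gene COL6A2, the COL6A2-FTCD interval (chr1:147570739-147582684) averaged 580 CPM, and the right gene FTCD 0.0139 CPM. The LOX-SRFBP1 interval (chr7:33101647-33128489) averaged 450 CPM. Its left gene LOX codes for the enzyme that cross-links collagen and averaged 451 CPM over its own row. The remaining 4 intervals of highest level were ITGB1-C13H10orf68 (chr13:20290983-20317011) at 374 CPM beside the integrin subunit gene ITGB1, RUNX3-CLIC4 (chr2:128656643-128710444) at 351 CPM, LOC100296978-LOC100848558 (chr14:38614753-38706436) at 331 CPM and IGFBP2-IGFBP5 (chr2:105367087-105378989) at 327 CPM, between genes of insulin-like growth factor binding proteins. RefSeq lists long noncoding RNA genes between the flanks of RUNX3-CLIC4. None of these 8 intervals was called at 2 h or 8 h of LPS.

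At the other end, the intervals just inside the limit included CLCN1-FAM131B (chr4:107554737-107559653) with a mean of 0.893 CPM (0.0315 to 2.61) and KCNK1-LOC100847764 (chr28:6559859-6672888) with 0.903 CPM (0.353 to 1.53). Just outside it lay CD200-LOC531767 (chr1:57591093-57672615) with a mean of 2.21 CPM (0.308 to 6.64) and LOC100848044-AJAP1 (chr16:49801185-49832119) with 1.40 CPM (0.131 to 6.18), each at 1 CPM in 11 samples.

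Exposure to LPS for 2 h changed a small share of the intervals. A call here needed a false discovery rate (FDR, Benjamini-Hochberg) under 0.05 in edgeR's likelihood-ratio test across all rows, a fold change of at least 2 and a mean above 1 CPM, over the 8 samples of each hour. Of 2052 intervals tested, 53 rose (2.58%) and 12 fell (0.585%) at 2 h, beside 2.08% and 0.739% of all 20157 rows tested. The median log2 change was 0.03 in the intervals and -0.00 in all rows. The change had a common sign in all 8 animals in 60 of the 65 called. Such counts, here and below, are over calls picked by their change in the same samples, which favours a common sign. They are descriptions. Without the 4 samples that stand apart 57 were called, and 60 of the 65 overlapped no gene row. By length, 2.11% of the intervals under 5 kb were called, 2.32% from 5 to 20 kb, 4.30% from 20 to 100 kb and 4.05% of the longer ones.

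The named rises at 2 h included intervals beside TNFAIP3, LIF and NFATC1. TNFAIP3 codes for A20, a ubiquitin-editing enzyme that restrains nuclear factor kappa B signalling, and the TNFAIP3-PERP interval lies past its 3′ end (chr9:76776875-76937940, 161066 bases). RefSeq lists the pseudogene LOC112448203 between the flanks of this interval. At 0 h the interval stood at 0.717, 0.688, 0.460 and 0.438 CPM in Angus 1 to 4 and at 0.612, 0.874, 0.706 and 0.569 CPM in Holstein 1 to 4. At 2 h it stood at 10.1, 13.0, 29.2 and 4.09 CPM in Angus and at 13.8, 38.15, 9.83 and 25.1 CPM in Holstein. Every 2 h sample lay above every 0 h sample. The log2 change was 4.83 ± 0.355 (SE, n = 8 a time, FDR 3.84e-29), beside 5.45 ± 0.376 in TNFAIP3 and -0.13 in PERP, a desmosome gene at the other side. At 8 h it was still higher by 3.14 ± 0.362 (FDR 2.38e-13), with single samples from 0.921 to 12.9 CPM, and TNFAIP3 by 3.79.

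LIF codes for leukemia inhibitory factor, a cytokine of the interleukin-6 family, and its 3′ end borders the HORMAD2-LIF interval (chr17:71353955-71413854). The interval had a lowest, median and highest level of 0.380, 1.93 and 3.41 CPM at 0 h, and of 3.58, 48.5 and 93.8 CPM at 2 h. No sample overlapped between these hours, although the lowest 2 h sample lay just above the highest at 0 h. LIF itself went from 0.409, 2.95 and 3.76 CPM to 4.78, 64.6 and 125.9 CPM. The log2 changes were 4.66 ± 0.539 in the interval (FDR 5.72e-12) and 4.64 ± 0.560 in LIF.

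NFATC1, a transcription factor gene of the calcium and calcineurin pathway, borders the LOC100848384-NFATC1 interval (chr24:996960-1018252). The interval had 2.95, 5.39 and 7.80 CPM (lowest, median, highest) at 0 h, 22.3, 50.6 and 68.1 CPM at 2 h and 3.11, 5.14 and 8.37 CPM at 8 h. All samples of 2 h lay above all of 0 h, and those of 8 h overlapped with 0 h. The log2 change at 2 h was 3.19 ± 0.234 (FDR 1.57e-33) beside 3.30 ± 0.221 in NFATC1 and -0.10 in the gene to the left, and at 8 h it was 0.05 beside 0.35.

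In other intervals the change followed a flanking gene less closely. The LOC100298963-LOC100337485 interval (chr17:74812333-74837575) had the highest log2 change at 2 h, with levels of 0.602, 1.02 and 1.66 CPM at 0 h, 20.4, 36.7 and 64.3 CPM at 2 h and 3.25, 3.89 and 6.72 CPM at 8 h. The left gene LOC100298963 had 0.328, 0.831 and 1.21 CPM at 0 h and 1.45, 2.60 and 3.44 CPM at 2 h. Both sets separated the hours fully, by 5.02 ± 0.233 in the interval (FDR 1.87e-72) and by 1.64 in the gene. The GSTO2-ITPRIP interval (chr26:25119773-25130960), beside a gene for a protein that binds inositol trisphosphate receptors, went from 1.20, 1.52 and 3.70 CPM to 6.99, 16.6 and 20.4 CPM. Its log2 change was 2.96 ± 0.273 (FDR 8.34e-22) and that of ITPRIP 1.23 ± 0.0973.

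The other 3 intervals named at 2 h changed with a flanking gene. The LOC781028-GCNT4 interval (chr10:6182027-6431947), beside GCNT4 of mucin-type glycan branching, went from 1.00, 2.00 and 3.81 CPM to 7.48, 12.8 and 22.2 CPM, with no overlap. Its log2 change was 2.61 ± 0.258 (FDR 1.43e-19), and that of GCNT4 2.81 ± 0.326. RefSeq lists small nuclear RNA genes between the flanks of this interval. The NOC2L-SAMD11 interval (chr16:52775779-52776142) is 364 bases long and rose from 0.441, 0.951 and 1.74 CPM to 3.40, 7.22 and 12.04 CPM. Its change was 2.69 ± 0.323 (FDR 2.61e-13), that of SAMD11 2.54 and that of NOC2L, a gene for an inhibitor of histone acetylation, 0.47. The LOC100337435-LOC100301250 interval (chr21:69466253-69532884) had 0.994, 3.67 and 6.30 CPM at 0 h and 2.86, 21.4 and 47.5 CPM at 2 h, which overlap, and changed by 2.76 ± 0.531 (FDR 1.75e-05) beside 3.08 in its left gene.

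**Figure D2:**
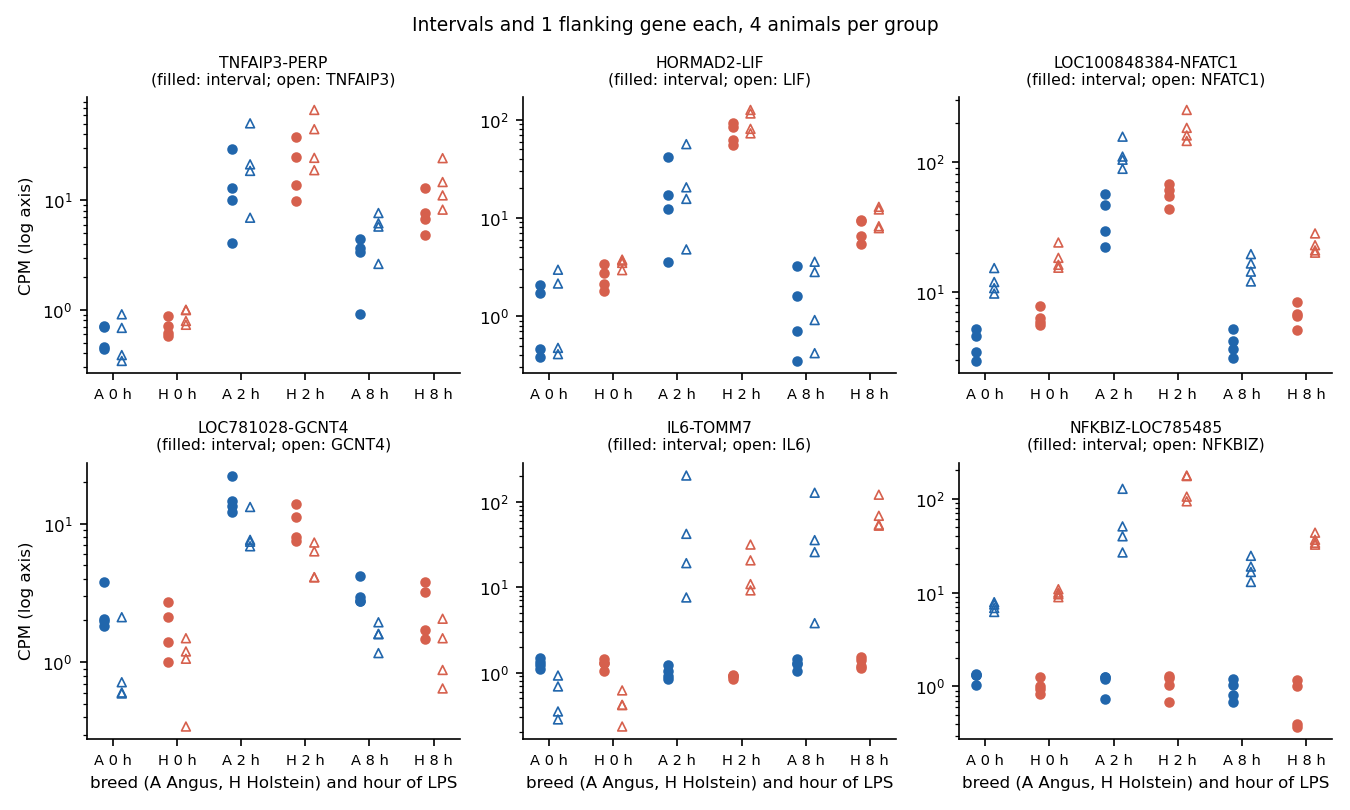
Level in CPM, scaled by TMM and on a log axis, of 6 intervals (filled circles) and of the flanking gene of closest or highest change (open triangles) in every sample at 0, 2 and 8 h of LPS, with Angus in blue and Holstein in red. The TNFAIP3-PERP, HORMAD2-LIF, NFATC1 and GCNT4 intervals rise with their gene at 2 h, while the IL6-TOMM7 and NFKBIZ-LOC785485 intervals stay between 0.374 and 1.51 CPM as IL6 and NFKBIZ rise.

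Most of the 12 falls at 2 h were smaller. None of them was among the 8 of highest change, and the following were picked after their values were seen. The LOC100848629-SESN2 interval changed by -1.83 ± 0.171 (FDR 8.86e-23), beside -1.50 in SESN2, a stress-responsive gene of the sestrin family. The GABARAPL2-ADAT1 interval changed by -1.22 ± 0.123 (FDR 1.66e-20), while GABARAPL2, of the autophagy machinery, changed by 0.09 and ADAT1 by 0.06. The GPRIN3-LOC100847698 interval changed by -1.43 ± 0.139 (FDR 1.16e-21), and neither of its flanking genes was expressed enough to be tested.

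At 8 h fewer intervals differed from 0 h. Of 2065 tested, 20 rose (0.969%) and 6 fell (0.291%), beside 1.07% and 0.358% of all 20368 rows. Of the 26, 23 had a common sign in all 8 animals, 27 were called without the 4 samples that stand apart, and 21 overlapped no gene row. The genes beside the highest changes included enzymes, protease inhibitors and stress regulators.

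The LOC525275-CYP7B1 interval (chr14:30968780-30983212), beside the oxysterol hydroxylase gene CYP7B1, had 1.62, 2.95 and 3.79 CPM at 0 h, 1.57, 3.595 and 10.1 CPM at 2 h and 2.62, 13.2 and 29.1 CPM at 8 h. The 0 h and 8 h samples overlapped, and the log2 change at 8 h was 2.35 ± 0.370 (FDR 1.31e-07) beside 2.07 in CYP7B1. The MRPL44-SERPINE2 interval (chr2:112858969-112869803) had 0.765, 1.62 and 2.45 CPM at 0 h and 3.14, 6.10 and 16.6 CPM at 8 h, without overlap. It changed by 2.11 ± 0.349 (FDR 4.70e-07), SERPINE2, an inhibitor of thrombin and of plasminogen activators, by 1.47, and MRPL44, of the mitochondrial ribosome, by 0.19.

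The SESN3-ENDOD1 interval (chr15:15524180-15585021) fell, from 18.1, 32.6 and 50.7 CPM at 0 h and 15.02, 27.9 and 49.1 CPM at 2 h to 4.74, 7.96 and 11.5 CPM at 8 h. Every 8 h sample lay below every sample of the earlier hours. The log2 change was -2.08 ± 0.228 (FDR 1.15e-15), beside -1.59 in SESN3, another sestrin, and -0.12 in ENDOD1. The CBLN3-NYNRIN interval (chr10:20580626-20588781) went from 1.88, 2.29 and 2.98 CPM to 4.48, 8.79 and 9.98 CPM at 8 h. It rose by 1.71 ± 0.205 (FDR 1.58e-13), with 1.87 in CBLN3, a gene of the cerebellin family, and -0.30 in NYNRIN.

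A pair of the intervals named at 8 h lay over listed genes. The LOC781186-LOC533234 interval (chr20:3159608-3535865), which covers part of the growth factor gene FGF18, went from 2.66, 16.7 and 27.9 CPM at 0 h and 2.72, 12.4 and 19.8 CPM at 2 h to 1.20, 2.03 and 3.01 CPM at 8 h. The log2 change was -2.86 ± 0.397 (FDR 2.34e-09), and those of the flanking genes were 0.03 and -0.12. RefSeq also lists the protein-coding gene SMIM23, a small nuclear RNA gene and a transfer RNA gene between these flanks. The LOC100138124-ASTN2 interval (chr8:107174443-107410242), which covers part of PAPPA, a protease of growth factor binding proteins, went from 0.896, 1.02 and 2.54 CPM to 1.30, 4.50 and 9.77 CPM. Its change was 1.91 ± 0.389 (FDR 6.84e-05) beside 0.47 and 0.01, and RefSeq lists a transfer RNA gene between its flanks. The left gene LOC100138124, with 0.47, ranged from 2.12 to 42.2 CPM at 0 h and from 1.85 to 48.6 CPM at 8 h. Its value is therefore no sign of a stable level. In both intervals the 0 h and 8 h samples overlapped. The remaining interval named at 8 h was LOC100298963-LOC100337485, still higher by 1.93 ± 0.220.

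About as many of the called intervals had a flanking gene called the same way as had none. At 2 h, of the 65 intervals called, 2 had both flanks called the same way, 31 had 1 flank and 32 had none. For 6 of the 32 no flank was tested, for want of expression. No flank was called the opposite way. The change of the interval lay within 0.5 on the log2 scale of that of a flank in 38 of 59 intervals with a tested flank, the median distance to the nearer flank was 0.33, and 42 changed more than either tested flank. At 8 h, 15 of 26 had a flank called the same way, 17 of 25 lay within 0.5 of a flank, the median distance was 0.39 and 21 changed more than either tested flank. These counts start from intervals picked for a large change and are given as a description.

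Read from the genes, some intervals were called with their gene and some were not. Of 53 flanking genes called higher at 2 h, 31 had their interval called higher too. Their intervals had a median log2 change of 1.11 and the genes 1.57, and 47 of the intervals changed by more than 0. Of 29 flanking genes called lower, 4 had their interval called lower, with medians of -0.25 in the intervals and -1.23 in the genes, and 21 intervals changed by less than 0. At 8 h, 31 genes were higher with 11 of their intervals (medians 0.45 and 1.34, 23 intervals above 0), and 21 were lower with 4 of their intervals (medians -0.44 and -1.16, 21 intervals below 0). Whether rises and falls differed in this was not tested.

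Over all tested intervals, the change of the interval and of its flank of higher level had a Pearson correlation of 0.63 at 2 h (n = 1894 intervals) and 0.55 at 8 h (n = 1905). With the flank of lower level it was 0.51 (n = 950) and 0.37 (n = 965). All points share the same 16 libraries, so these values describe the tables and carry no test.

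**Figure D3:**
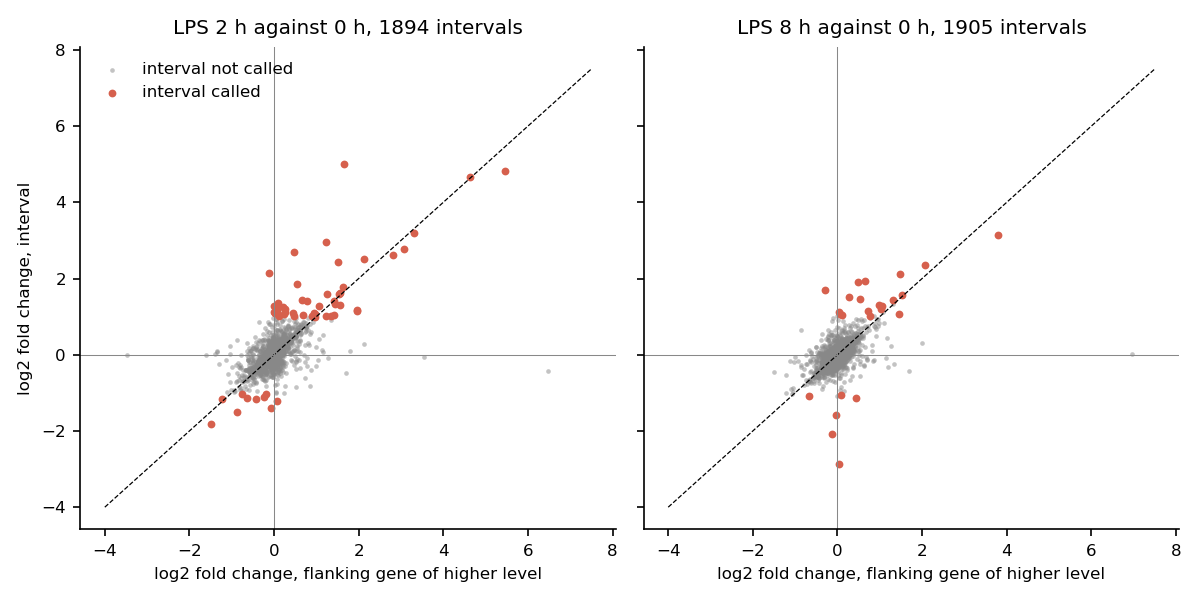
Log2 change of each interval against 0 h of LPS (vertical axis) plotted over that of its flanking gene of higher level (horizontal axis), for 1894 intervals at 2 h and 1905 at 8 h. The dashed line marks equal change and red points are called intervals, some along the line and others above or below a gene near 0, while single points such as IL6-TOMM7 lie near 0 under a gene that rose by 6.46 and 6.97.

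The difference between an interval and its neighbour was then tested directly, as the log2 ratio of interval to gene in each sample (limma, log2 of CPM plus 0.5, FDR under 0.05 and a difference of at least 1). At 2 h, 53 of 2844 pairs differed in their change (1.86%), beside 2.29% of all 9143 abutting pairs of a symbol-free and a named row in the genome. The interval rose more or fell less than the gene in 29 and the reverse held in 24. At 8 h, 33 of 2870 pairs differed (1.15%), beside 1.01% of 9326, with 15 in the first direction and 18 in the second. The sign was common to all 8 animals in 49 of 53 and in 33 of 33. With a pseudocount of 2 CPM the counts were 33 and 21.

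The pairs fell into different kinds. Of the 29 at 2 h with the interval higher, 13 had the interval called and not the gene, 10 had the gene called and not the interval, 2 had both and 4 neither. Of the 24 with the interval lower, 5 had the interval called, 13 the gene, 1 both and 5 neither. Among the first 29, 18 of the 21 intervals whose other flank was tested lay within 0.5 of that other flank, and among the 24 it was 12 of 20. Over all tested intervals at 2 h, 1807 of 1894 lay within 0.5 of their nearer flank. That count uses the nearer of the tested flanks, and most of its intervals were not called. It is therefore an unlike measure, and nothing is concluded from the shares of the pairs. The TNFAIP3-PERP interval differed from PERP by 3.85 (FDR 4.46e-07) and from TNFAIP3 by -0.70 (FDR 0.0015), under the limit of 1. The LOC100848384-NFATC1 interval differed from its left gene by 3.13 (FDR 2.55e-09). At 8 h, the SESN3-ENDOD1 interval fell by 1.86 more than ENDOD1 (FDR 4.67e-05).

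Other pairs set apart a gene that rose strongly from an interval that did not. IL6, a main cytokine of the LPS response, had a lowest, median and highest level of 0.233, 0.417 and 0.923 CPM at 0 h, 7.59, 19.9 and 204 CPM at 2 h and 3.80, 53.4 and 128.2 CPM at 8 h. The IL6-TOMM7 interval past its end (chr4:31582680-31643800) had 1.05, 1.30 and 1.47 CPM, then 0.847, 0.913 and 1.22 CPM, then 1.05, 1.28 and 1.51 CPM. IL6 separated 0 h from both later hours, while the interval stayed within 0.847 and 1.51 CPM throughout. TOMM7, the flanking gene on the other side, stood between 22.9 and 32.9 CPM over all samples. Reads of the interval cannot be assigned to either gene. The difference in change was -4.89 ± 0.483 at 2 h (limma FDR 2.93e-06) and -5.50 ± 0.533 at 8 h (FDR 1.98e-05). By itself the interval changed by -0.42 at 2 h (edgeR FDR 0.00637), under the fold limit, and by 0.01 at 8 h.

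NFKBIZ, a nuclear regulator of secondary response genes, had 6.21, 8.40 and 10.8 CPM at 0 h, 26.7, 99.1 and 175.9 CPM at 2 h and 13.0, 28.4 and 43.3 CPM at 8 h. The NFKBIZ-LOC785485 interval (chr1:46554485-46862943) had 0.832, 1.15 and 1.34 CPM, then 0.686, 1.22 and 1.29 CPM, then 0.374, 0.907 and 1.20 CPM. The gene separated 0 h from both later hours and the interval overlapped at all hours. The differences were -3.27 ± 0.382 (FDR 1.59e-05) and -1.89 ± 0.299 (FDR 0.00097). At 8 h the complement factor B gene CFB went from 0.117, 0.489 and 2.55 CPM to 5.62, 92.3 and 186.7 CPM, and the RDBP-CFB interval (chr23:27225120-27225265) from 0.863, 1.01 and 1.13 CPM to 0.824, 0.984 and 1.23 CPM. This interval is 146 bases long, beside RDBP, a subunit gene of negative elongation factor, and the difference was -5.78 ± 0.642 (FDR 5.47e-05). RDBP itself had 40.2, 46.0 and 53.25 CPM at 0 h and 45.8, 49.8 and 54.5 CPM at 8 h. In the opposite order, with the interval above the gene, the named pair of LOC100298963-LOC100337485 and its left gene differed by 3.27 ± 0.107 at 2 h (FDR 6.74e-12). A further case, picked after its values were seen, was the LOC100300021-BIRC3 interval beside the apoptosis inhibitor gene BIRC3. At 2 h the change was 1.09 in the interval and 2.87 in BIRC3, with a difference of -1.48 ± 0.299 (FDR 0.00222). This interval was itself called higher, and RefSeq lists the protein-coding gene BIRC2 between its flanks, so its reads need not lie past the end of BIRC3.

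**Figure D4:**
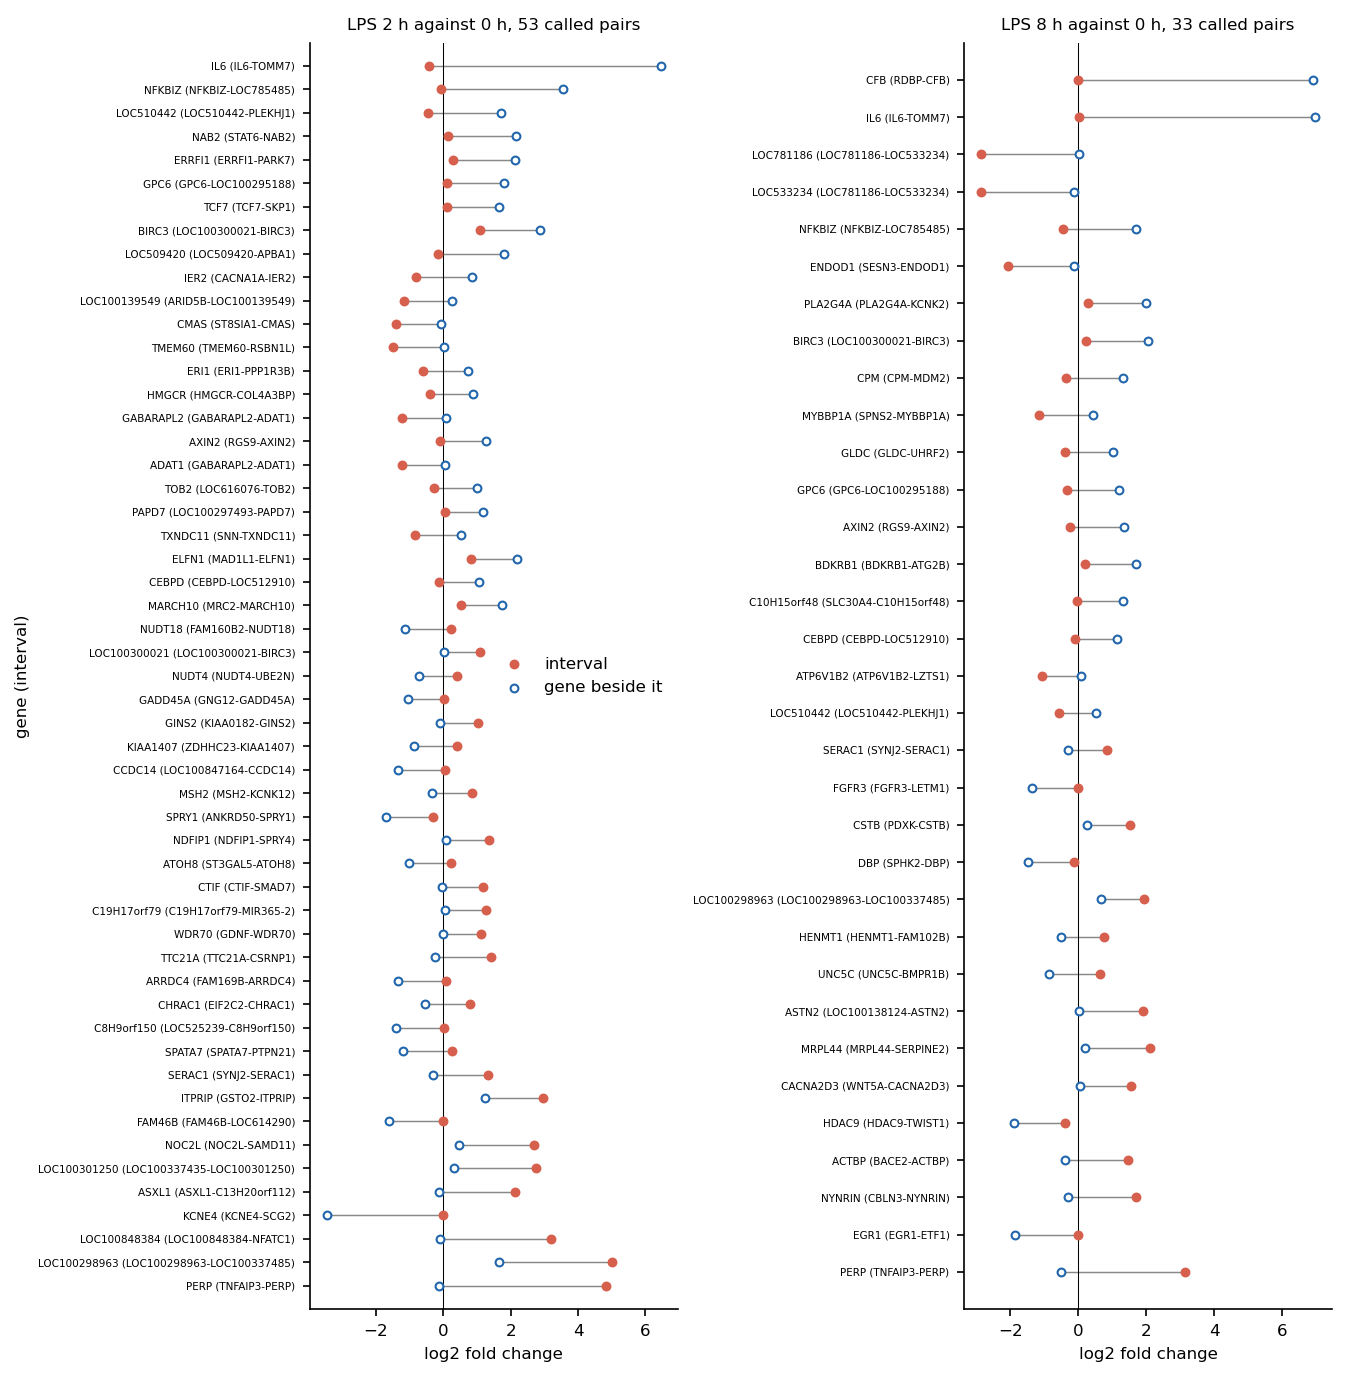
Log2 change of the interval and of its flanking gene, joined by a line, for the 53 interval and gene pairs that differed at 2 h of LPS and the 33 at 8 h, ordered by their difference, with filled points for the interval and open points for the gene beside it. IL6-TOMM7, NFKBIZ-LOC785485 and RDBP-CFB have intervals near 0 and genes between 1.698 and 6.97, and pairs at the other end have the interval above the gene.

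Genes of the machinery that forms 3′ ends did not change enough to be called. Of 23 factors (the cleavage and polyadenylation specificity factors, the cleavage stimulation factors, poly(A) polymerases, the nuclease XRN2 and partners), none was called at 2 h, at 8 h or between breeds at any hour by edgeR's likelihood-ratio test, its quasi-likelihood F test or DESeq2. At an unadjusted p under 0.05 the likelihood-ratio test had 7 of 23 at 2 h and 7 at 8 h, and 3, 8 and 3 between breeds at 0, 2 and 8 h. The corresponding numbers were 9, 7, 5, 12 and 11 by the F test and 8, 7, 5, 11 and 10 by DESeq2. At FDR under 0.05 without the fold limit, the likelihood-ratio test had 6 at 2 h and 2 at 8 h. All rows had 4436 of 20157 and 2606 of 20368. Between breeds the test had 2, 5 and 2 at 0, 2 and 8 h. There all rows had 2816 of 20385, 4050 of 20184 and 3411 of 20679. The F test and DESeq2 also had 6 factors at 2 h. The log2 changes of the factors at 2 h lay between -0.45 (CSTF1, FDR 0.0190) and 0.41 (RBBP6, FDR 2.20e-06). At 8 h that of XRN2, the exonuclease that follows the polymerase past the cut, was 0.41 (FDR 1.83e-07), under the fold limit. Of 17 tested target genes of the LPS response, 14 rose at 2 h and 16 at 8 h, and IL6, NFKBIZ, TNFAIP3, BIRC3 and LIF flanked intervals of the set. Both lists were drawn up with earlier results of these data known.

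The share of all counts that fell in the intervals did not differ beyond the spread between samples. It was 3.67 ± 0.275% in Angus and 3.59 ± 0.230% in Holstein at 0 h, 3.54 ± 0.254% and 3.82 ± 0.0977% at 2 h, and 3.66 ± 0.0525% and 3.72 ± 0.177% at 8 h (SD, n = 4). Within animals it was higher at 2 h than at 0 h by 0.0498 percentage points (SD 0.284, higher in 5 of 8, exact permutation P = 0.617) and at 8 h by 0.0626 (SD 0.268, 5 of 8, exact permutation P = 0.531). The difference of Holstein minus Angus was 0.283 points at 2 h (exact permutation P = 0.114, adjusted over 5 tests 0.571), 0.0575 points at 8 h (P = 0.571, exact permutation) and -0.0810 points at 0 h (P = 0.657, exact permutation). All 5 tests were two-sided. Without MIR2917-COL3A1, the interval of highest level, the breed differences were -0.247 points at 0 h, 0.0850 at 2 h and -0.117 at 8 h, and without the samples that stand apart the 8 h difference within animals was -0.0933 (2 of 5 animals higher).

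Between breeds, the intervals differed about as often as other rows. At 0 h, 35 of 2048 intervals were higher in Holstein (1.71%) and 44 were lower (2.15%), beside 1.73% and 2.08% of all 20385 rows. At 2 h, 51 of 2027 were higher (2.52%) and 31 lower (1.53%), beside 2.43% and 2.02% of 20184 rows. At 8 h, 41 of 2063 were higher (1.99%) and 22 lower (1.07%), beside 2.21% and 1.03% of 20679 rows. All samples of a breed lay above all of the other in 60 of the 79 called at 0 h, 66 of 82 at 2 h and 51 of 63 at 8 h. Calling on these same samples favours such separation. Single libraries moved these counts: 52 were called at 0 h without Angus 4, 115 at 8 h without Angus 3, and 37 at 0 h without the 3 samples there that stand apart in COL1A1. With the quasi-likelihood F test, 52 were called at 0 h. In all, 137 intervals were called at 1 or more hours and 26 at every hour, 14 higher and 12 lower in Holstein. The animals are the same at each hour, so this is no independent repeat. The counts include intervals that passed the level limit mainly through 1 breed, whose difference that limit partly sets.

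Intervals higher in Holstein included those beside a transporter gene and a gene of the cilium. The GRIP2-SLC6A6 interval (chr22:58426811-58448091) borders the taurine transporter gene SLC6A6. At 0 h it stood at 1.42, 6.74, 4.09 and 1.23 CPM in Angus and 16.2, 34.5, 16.4 and 13.1 CPM in Holstein, with no overlap. Its log2 difference was 2.59 ± 0.533 at 0 h (FDR 0.000265), 2.26 at 2 h and 2.61 at 8 h, beside 2.38 in SLC6A6 at 0 h. GRIP2, the left gene, averaged 0.770 CPM at 0 h and differed by 2.41, which was not called. At 2 h GRIP2 differed by 1.87 and was called. The WDR35-LOC100847529 interval (chr11:78962422-78963560), beside WDR35 of the ciliary transport machinery, stood at 3.098, 4.89, 5.43 and 2.18 CPM in Angus and 13.5, 19.7, 14.2 and 10.8 CPM in Holstein. It differed by 1.92 ± 0.300 (FDR 1.50e-07), and WDR35 by 1.97. The gene to its right differed by -0.39, and the pair with it by 2.17 (limma FDR 0.00354), a call that was lost, as were all breed pairs at 0 h, without the samples that stand apart.

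The MIR335-COPG2 interval (chr4:95071085-95079912), which lies over part of the imprinted gene MEST, differed by 2.02 ± 0.586 (FDR 0.0117). The call was lost without the samples that stand apart (1.66) and without Angus 4 (1.74).

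Intervals with lower levels in Holstein included those beside a chemokine, a pigment gene and genes of cell division. Those beside the pigment gene ASIP and beside MCM10 passed the level limit through Angus, so their differences are descriptions. CXCL12 codes for a chemokine made by stromal cells, and the CXCL12-LOC100140590 interval (chr28:45418795-45900066) stood at 33.9, 11.1, 9.62 and 61.8 CPM in Angus and 4.08, 1.69, 6.67 and 9.68 CPM in Holstein at 0 h. The highest Holstein sample lay just above the lowest of Angus. RefSeq lists the long noncoding RNA gene LOC101902647 between the flanks of this interval. The difference was -2.38 ± 0.642 at 0 h (FDR 0.0066), -3.41 at 2 h and -2.47 at 8 h, beside -2.50 in CXCL12 at 0 h, and the 0 h call was lost without Angus 4 (-1.72) and without the samples that stand apart (-1.77). The FAM154A-ADAMTSL1 interval (chr8:25319688-25340758), beside a matrix protein gene, differed by -2.06 ± 0.253 at 0 h (FDR 3.36e-12), -1.85 at 2 h and -1.83 at 8 h, and ADAMTSL1 by -2.10.

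MCM10 acts in the start of DNA replication, and the MCM10-UCMA interval (chr13:28170528-28176260) stood at 4.18, 4.24, 2.35 and 9.27 CPM in Angus and 0.0149, 0.0583, 1.35 and 0.0438 CPM in Holstein. The 3 low Holstein samples lay at or near the level of 3 counts. It was at 1 CPM in all 12 Angus samples and, in Holstein, in the 3 of animal 3, so it owes its place to Angus and its fitted difference of -3.76 at 0 h, beside -0.73 in MCM10, is a description, with no test. That difference was -3.28 without Angus 4 and -2.40 without the samples that stand apart. The CFHR5-ASPM interval (chr16:77913044-77923517), beside the mitotic spindle gene ASPM, stood at 4.20, 2.96, 2.00 and 4.91 CPM in Angus and 0.523, 0.219, 1.05 and 0.263 CPM in Holstein, with no overlap. It differed by -2.75 ± 0.485 at 0 h (FDR 8.58e-06), -2.04 at 2 h and -1.10 at 8 h, and ASPM by -1.89 at 0 h.

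A pair of the intervals lower in Holstein lay over listed genes. The MIR551A-ARHGEF16 interval (chr16:50741188-50811133), over part of MEGF6, stood at 455.3, 269.4, 205.8 and 547.8 CPM in Angus and 50.01, 68.2, 79.5 and 27.4 CPM in Holstein, and differed by -2.71 ± 0.374 (FDR 4.83e-09). The LOC100847172-PPP1R17 interval (chr4:64801575-65155643), over part of the cyclic nucleotide phosphodiesterase gene PDE1C, differed by -2.12 ± 0.499 (FDR 0.00131) and by -1.73, not called, without the samples that stand apart.

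**Figure D5:**
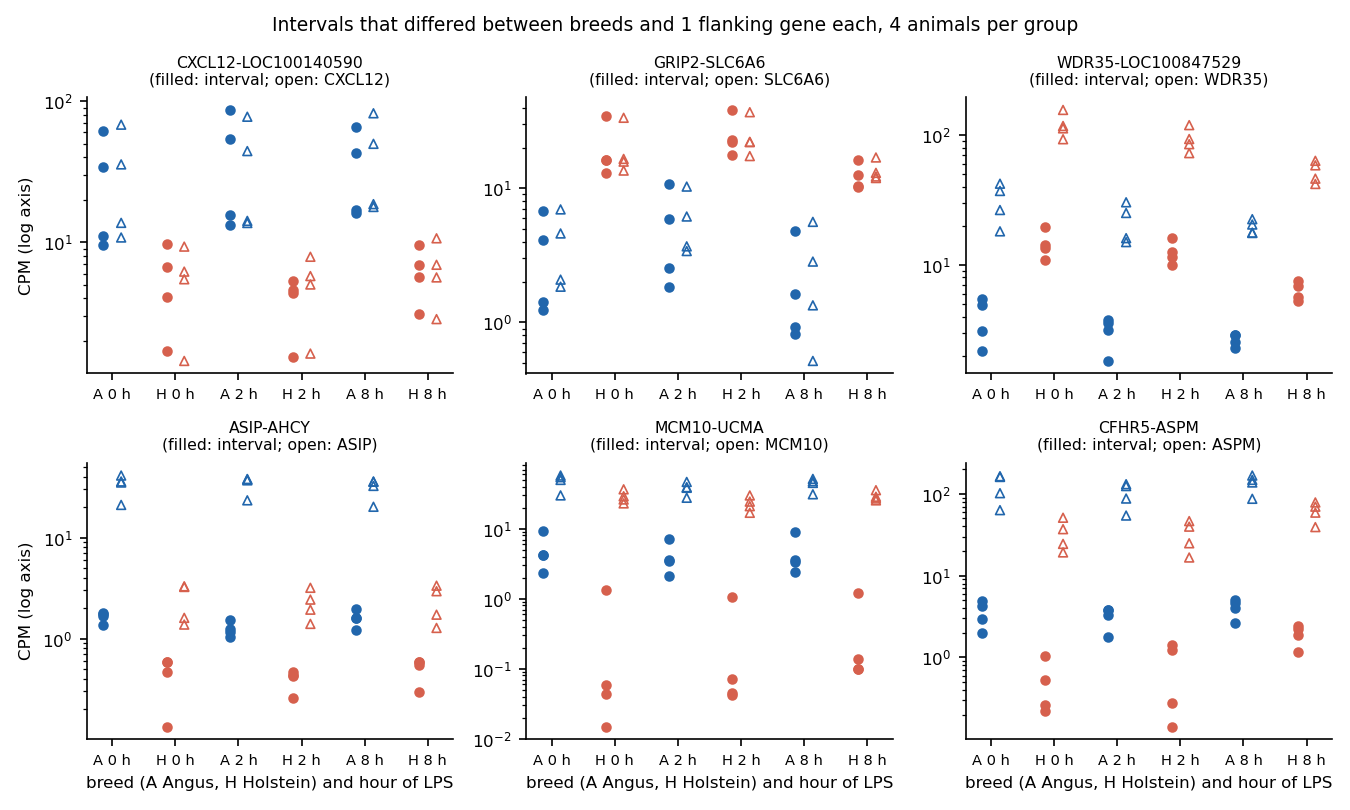
Level in CPM, scaled by TMM and on a log axis, of 6 intervals (filled circles) and of a flanking gene (open triangles) in each sample at 0, 2 and 8 h, with Angus in blue and Holstein in red. ASIP-AHCY and MCM10-UCMA passed the level limit through Angus. The breeds lie apart at 0 h in the GRIP2-SLC6A6, WDR35-LOC100847529, ASIP-AHCY, MCM10-UCMA and CFHR5-ASPM intervals, and touch in CXCL12-LOC100140590, where the highest Holstein sample (9.68 CPM) is just above the lowest Angus sample (9.62 CPM).

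Of the pairs of interval and gene at 0 h, 38 of 2852 differed between breeds (1.33%), beside 1.23% of all 9339, with the interval the more Holstein-biased in 17 and the less so in 21. All 38 separated the breeds fully, which picking pairs by their difference in these same samples favours. This count rested on single animals, with 7 without Angus 1, 20 without Angus 2, 86 without Angus 3, 9 without Angus 4, 11 without Holstein 1, 18 without Holstein 2, 13 without Holstein 3 and 14 without Holstein 4, and it was 0 without the samples that stand apart. ASIP, the agouti gene of the pigment pathway, stood at 21.0, 35.1, 41.1 and 35.9 CPM in Angus and 1.37, 1.60, 3.29 and 3.24 CPM in Holstein. The ASIP-AHCY interval (chr13:64239965-64258555) stood at 1.37, 1.78, 1.76 and 1.67 CPM in Angus and 0.134, 0.583, 0.463 and 0.591 CPM in Holstein. The interval reached 1 CPM in the 12 Angus samples and in no Holstein sample, so it passed the level limit through Angus alone. Its breed difference of -1.89, beside -3.79 in the gene, is therefore a description, with no test. GALNTL2, of a family that starts mucin-type glycans, stood at 0.644, 2.04, 1.61 and 0.945 CPM in Angus and 5.11, 7.81, 12.4 and 6.77 CPM in Holstein. The GALNTL2-DPH3 interval (chr1:154969398-155004505) stood at 7.06, 7.16, 6.87 and 7.28 CPM in Angus and 6.42, 6.69, 6.72 and 6.24 CPM in Holstein, and differed by -0.11 against 2.63 in the gene, with a pair difference of -2.35 ± 0.301 (FDR 0.0130).

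For the breeds, 41 of 79 called intervals at 0 h, 45 of 82 at 2 h and 33 of 63 at 8 h had a flanking gene called the same way. The change lay within 0.5 of a flank in 50 of 72, 54 of 79 and 36 of 56 with a tested flank. Of 59 flanking genes higher in Holstein at 0 h, 18 had their interval called higher (medians 0.57 in the intervals and 1.26 in the genes), and of 52 lower, 23 had it called lower (-0.69 and -1.29). Over all tested intervals the correlation with the flank of higher level was 0.62 (n = 1889), 0.61 (n = 1873) and 0.63 (n = 1905), each over the same 8 libraries of its hour.

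A test of the interaction asked whether LPS changed an interval by different amounts in the breeds. At 2 h, 10 of 2052 intervals were called (0.487%), beside 0.278% of all rows, 7 with the higher change in Holstein and 3 with the higher change in Angus. With the quasi-likelihood F test 3 were called. At 8 h 1 of 2065 was called (0.0484%), beside 0.0982% of all rows. That single call turned to 13 with the animal as a block, to 6 without Angus 3, to 4 without Holstein 3, and to 0 by the F test or without any of Angus 1, Angus 2, Angus 4, Holstein 1 and Holstein 4.

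The ZSWIM4-MIR24-2 interval (chr7:12977639-12981641), next to a microRNA gene, had the lowest FDR. It stood at 8.56, 8.21, 8.00 and 9.84 CPM in Angus and 7.44, 6.92, 8.41 and 9.11 CPM in Holstein at 0 h, and at 11.8, 11.97, 11.6 and 10.7 CPM and 24.4, 25.7, 25.4 and 24.5 CPM at 2 h. The breeds overlapped at 0 h and stood apart at 2 h. The change in Holstein exceeded that in Angus by 1.24 ± 0.160 on the log2 scale (FDR 6.26e-11), beside 0.11 in ZSWIM4. The TTC21A-CSRNP1 interval (chr22:12515212-12520392), beside a transcription factor gene of the immediate early kind, stood at 2.76, 3.44, 3.41 and 3.19 CPM in Angus and 3.35, 3.18, 3.20 and 3.11 CPM in Holstein at 0 h, and at 2.56, 5.12, 5.88 and 2.11 CPM and 13.1, 14.3, 11.4 and 13.7 CPM at 2 h. The breeds were alike at 0 h and apart at 2 h, and the difference in change was 1.74 ± 0.369 (FDR 0.00194) beside 1.68 in CSRNP1.

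The CCDC85B-FOSL1 interval (chr29:44672652-44672787) is 136 bases long and borders FOSL1, a member of the AP-1 transcription factors. It stood at 2.73, 1.14, 0.864 and 4.07 CPM in Angus and 0.597, 0.306, 0.452 and 0.329 CPM in Holstein at 0 h, and at 8.31, 6.15, 8.17 and 7.93 CPM and 7.39, 8.25, 6.54 and 7.23 CPM at 2 h. The breeds stood apart at 0 h and overlapped at 2 h, so the difference in change of 2.33 ± 0.541 (FDR 0.0077) came with unlike starting levels. FOSL1 had 1.81. The MIR2300B-PAN3 interval (chr12:31820811-31858285), over part of the vascular endothelial growth factor receptor gene FLT1, stood at 1.80, 2.25, 1.86 and 1.72 CPM in Angus and 2.93, 3.37, 2.85 and 3.53 CPM in Holstein at 0 h, and at 6.76, 6.18, 6.20 and 7.55 CPM and 5.11, 3.54, 3.38 and 4.67 CPM at 2 h. The breeds changed places between the hours, with a difference in change of -1.40 ± 0.240 (FDR 8.77e-06). The ASXL1-C13H20orf112 interval (chr13:62413980-62420835) had -1.49 ± 0.339 (FDR 0.00549), and at 8 h the CEBPD-LOC512910 interval (chr14:20740408-20840191), beside the transcription factor gene CEBPD, had 1.37 ± 0.340 (FDR 0.0425).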

How the data were processed

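Poly(A)-enriched RNA of 24 samples (4 Angus and 4 Holstein cultures at 0, 2 and 8 h of LPS) was sequenced by the study on an Illumina platform. Per the submitters' notes and methods, base calls came from CASAVA 1.7, and reads were filtered on quality, uncalled bases and length and aligned to UMD v3.1 with NextGENe 2.3.4, keeping alignments over most of the read length. The deposited tables give, per row of the genome, whole-number read counts that the authors did not normalize, and the authors' mean coverage per base, a signal used here only to compute aligned bases per count (coverage times row length over counts). How the counting treated strand and reads that meet several rows is not given in the sources used here. Rows without a gene symbol, which held 12.28 to 20.53% of the counts, are the subject and stayed in the library sizes. No column of an unmapped sample was found (0).

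Intervals were found by abutting coordinates, and the members, lists and tests were chosen with earlier results of these data known. Rows at 1 CPM or more in at least 50% of the samples compared were tested with TMM scaling and edgeR 4.0.16 (likelihood-ratio test, R 4.3.3): hour over 16 samples, breed over the 8 of an hour, and breed by hour over 16. A call needed FDR under 0.05 over all rows tested, a fold of 2 and an average above 1 CPM. The ratio of interval to neighbour was tested with limma 3.58.1 on log2(CPM + 0.5) over all abutting pairs, so its fold changes understate those of low rows. Levels were summarised with Python 3.11.15, pandas 2.3.3 and scipy 1.17.1, whose exact permutation test served for the share of counts. The level limit used CPM of the whole library, and levels of single samples are TMM-scaled CPM. The code was tested on simulated data. A depth of 51.0 to 104.4 counts per CPM limits the precision of low intervals, and this covers counting error only. The tests of hour, of breed by hour and of pairs over the LPS hours had no term for the animal. They took the 16 samples as independent although the hours share heifers, so their p-values do not use the pairing. The p-values between breeds at an hour measure the spread between cultures, 1 per heifer.

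Named intervals were the 8 of highest mean level; up to 8 called at each LPS hour with a common sign in all animals; up to 4 in each direction that separated the breeds at 0 h and those called at all hours, up to 8; up to 5 of each interaction; up to 5 pairs an hour and 3 for the breeds; and those next to the level limit. An interval that the rule named is not reported here. Gene symbols were matched to the RefSeq table of ARS-UCD2.0 for type and neighbours only, none of whose coordinates were used. The replicate number marks the animal, and samples of an animal deviated together (over the intervals, lowest correlation 0.50 and mean 0.64, against -0.21 between other samples). Alternatives were the quasi-likelihood F test, DESeq2 1.42.0, RLE or plain library sizes, no CPM filter, other limits and pseudocounts, the animal as a block, leaving out each replicate and leaving out the 4 samples whose COL1A1 row stands apart. Library sizes of named rows alone and the intervals that overlap no gene row were added after seeing the data. No sequences are printed, since no genome of this build was used here.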

Additional observations from a re-analysis of the deposited data

Results flagged for a closer look

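Some named intervals had a single sample far from the other 3 of its group, by Dixon's test of the gap to the nearest. The test marked 21 of 270 groups, and chance alone marks about 1 in 20, so single marks are weak. Beside genes of the matrix, MIR2917-COL3A1 stood at 6907 CPM in Holstein 4 at 0 h and 6315 CPM at 8 h, and MRPL44-SERPINE2 at 16.56 CPM in Angus 3 at 8 h and 2.45 CPM in Holstein 3 at 0 h. LOC100296978-LOC100848558 stood at 353 CPM in Angus 4 at 2 h. Among intervals that rose with LPS, LOC100298963-LOC100337485 stood at 64.28 CPM in Holstein 1 at 2 h, GSTO2-ITPRIP at 1.471 CPM in Holstein 2 at 0 h, LOC100337435-LOC100301250 at 38.35 CPM in Angus 3 at 2 h and NOC2L-SAMD11 at 6.399 CPM in Holstein 1 at 2 h. LOC781028-GCNT4 stood at 3.807 CPM in Angus 3 at 0 h and 4.185 CPM at 8 h, LOC100138124-ASTN2 at 2.535 CPM in Holstein 2 at 0 h and 5.062 CPM at 2 h, and CBLN3-NYNRIN at 7.698 CPM in Angus 3 at 8 h. Among intervals named for the breeds, GRIP2-SLC6A6 stood at 34.5 CPM in Holstein 2 at 0 h. MCM10-UCMA stood at 1.346, 1.073 and 1.204 CPM in Holstein 3 at 0, 2 and 8 h. ASIP-AHCY stood at 0.2951 CPM in Holstein 2 at 8 h. These last intervals, MCM10-UCMA and ASIP-AHCY, passed the level limit through Angus. NFKBIZ-LOC785485 stood at 1.042 CPM in Angus 4 at 0 h and 0.7332 CPM in Angus 1 at 2 h.

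The response to LPS differed between breeds by the interaction test in the following intervals, as the log2 change in Holstein minus that in Angus. At 2 h the values were 2.327 in CCDC85B-FOSL1, 1.735 in TTC21A-CSRNP1, 1.244 in ZSWIM4-MIR24-2, 1.224 in DLX2-DLX1, 1.192 in PPP2R4-IER5L, 1.081 in C19H17orf79-MIR365-2, 1.057 in APAF1-ANKS1B, -1.138 in SYNJ2-SERAC1, -1.402 in MIR2300B-PAN3 and -1.487 in ASXL1-C13H20orf112. At 8 h it was 1.37 in CEBPD-LOC512910.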

How the results depend on the processing

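Without the fold and level limits, at FDR under 0.05 alone, 472 of 2052 intervals were called at 2 h of LPS. At 8 h it was 282 of 2065. All rows had 4436 of 20157 and 2606 of 20368. Between breeds, 231 of 2048, 351 of 2027 and 308 of 2063 were called at 0, 2 and 8 h. There all rows had 2816 of 20385, 4050 of 20184 and 3411 of 20679. The interaction at 2 h had 15 of 2052, beside 88 of 20157 rows. For the pairs the counts were 399 of 2844, 185 of 2870 and 80 of 2852 (2 h, 8 h and breeds at 0 h). The count over all abutting pairs at this limit is not given here. The quasi-likelihood F test called 52 between breeds at 0 h, 3 in the interaction at 2 h and 0 in that at 8 h, where no CPM filter also gave 0. Without the 4 samples whose COL1A1 row stands apart, 37 intervals and 0 pairs were called between breeds at 0 h. A pseudocount of 2 CPM gave 33 pairs at 2 h and 21 at 8 h. The level limit gave 2165 intervals at 8 samples and 1677 at 24. Leaving out each replicate gave 59 to 68 intervals at 2 h, 22 to 31 at 8 h, 52 to 107, 62 to 123 and 49 to 115 between breeds at 0, 2 and 8 h, 7 to 13 and 0 to 6 in the interactions, and 50 to 60, 25 to 36 and 7 to 86 pairs. A replicate block for the animal gave 13 in the interaction at 8 h, and the other counts were 62 and 29 intervals, 14 in the interaction at 2 h and 54 and 37 pairs. Of the values of named intervals, 461 kept their call and 41 lost it, and none changed sign. The losses were in breed differences at 0 h (among them the MIR335, MCM10, CXCL12 and LOC100847172 intervals) and in the ASXL1, TTC21A, CCDC85B and CEBPD interactions. The MCM10 interval passed the level limit through Angus, so its call and its loss are no test. Without the 4 samples that stand apart, 24 values of named intervals kept their call and 8 lost it. Low counts limit intervals near 1 CPM, and 4 animals a breed limit every breed comparison. The cause was not tested.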
